A study of Mus musculus with 12 samples.

Results

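The 9 genes described here are the complement components C1qa, C1qb, C4b, C2, C3, Cfb and Cfd and the complement regulators Serping1 and Cd55, chosen by gene symbol from the 27998 genes of the count matrices. All 9 were listed in each of the 12 libraries. The cells came from the fourth mammary gland of female C57BL/6J mice aged 43 weeks, from which lymph nodes had been removed, and each treatment group is 1 droplet library (Chromium 3′ v3), so cells of 1 group share 1 preparation. How many animals went into a library is not given in the sources used here, and p-values then measure only the spread between libraries.

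Intact mice kept their ovaries and received no VCD. In the other 11 groups, follicles were depleted with VCD (4-vinylcyclohexene diepoxide, 160 mg/kg/day by intraperitoneal injection for 15 days), a model of menopause. In 9 of these 11 groups, 3 hormone states (no hormone, 17β-estradiol as E2 at 1 µg per animal per day for 1 week, or E2 with progesterone, P4, at 1 mg per animal per day) were crossed with 3 PBDE levels (no PBDE, low PBDE for 20 weeks, high PBDE for 1 week). PBDEs are polybrominated flame retardants. At the low level PBDE-47, PBDE-100 and PBDE-153 were given at 0.05, 0.0028 and 0.0063 mg/kg/day, and at the high level at 1, 0.056 and 0.126 mg/kg/day. Without hormone the groups are VCD_Vehicle, VCD_Low_PBDE and VCD_High_PBDE; with E2 they are VCD_E2, VCD_Low_E2 and VCD_High_PBDE_E2; and with both hormones they are VCD_E2_P4, VCD_Low_E2_P4 and VCD_High_PBDE_E2_P4. The remaining groups are VCD_Vehicle_NormEnv, kept in a normal cage environment in which plastic could be a source of PBDE, and VCD_E2_ICI, given E2 and 1 injection of 5 mg ICI, an estrogen receptor antagonist.

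Complement is a cascade of plasma and tissue proteins that tags particles for uptake and can perforate membranes. The classical pathway starts with C1q and its proteases and cleaves C4 and C2; the alternative pathway uses factors B and D; both lead to the cleavage of C3. Serping1 and Cd55 act as brakes, on the C1 proteases and on the convertases respectively. Liver makes most plasma complement, but fibroblasts, macrophages and adipocytes also make components locally.

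In UMIs (unique molecular identifiers, counts of captured molecules), the 12 libraries held 41737881 to 109224969 UMIs in 2497 to 10006 barcodes. Of 58620 barcodes, 46257 passed filters on genes, UMIs and mitochondrial share. Marker genes, none of them members, placed 21265 of 29024 fibroblasts in 4 subsets: 9993 Fib_0-like (Dpp4+ and Pi16+), 5340 Fib_1-like (Fabp4+ and Lpl+), 2922 Fib_2-like (Tnc+ and Postn+) and 3010 Fib_3-like (Gdf10+ and F3+) cells. The other 7759 fibroblasts were not assigned, and 2661 fibroblasts lay within 0.1 of the margin between subsets. Macrophage-like cells, with at least 4 of 7 macrophage markers, numbered 1198. Across libraries the subsets held 107 to 1374 cells and the macrophage-like class 62 to 177. Libraries shared 740 barcodes, and 885 cells that passed carried such a barcode. Levels below are UMIs per 1000000 UMIs of a population in a library (CPM), and in such sums fewer producing cells and less RNA per cell cannot be told apart.

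C1qa and C1qb encode chains of C1q, the recognition molecule of the classical pathway. They lie on the minus strand of chromosome 4 (mm10, C1qb at chr4:136880129-136886187 and C1qa at chr4:136895917-136898803, 9729 bases apart). Cd55, decay-accelerating factor, lies at chr1:130439027-130462744, and Serping1, the C1 inhibitor, at chr2:84765387-84775444, both on the minus strand. On chromosome 17, also on the minus strand, C4b (chr17:34728380-34743882), Cfb (chr17:34856374-34862518) and C2 (chr17:34862604-34898265) form a cluster in which 85 bases separate Cfb from C2, and C3 lies at chr17:57203970-57228136. Cfd, factor D or adipsin, lies at chr10:79890853-79892655 on the plus strand. C4b has the near-identical copy C4a and Cd55 the copy Cd55b, so that reads of these pairs may be split or lost, and their counts are uncertain to that extent.

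The 250 bases upstream of the annotated start are shown for C3, Cd55 and C1qb, from RefSeq (GRCm38.p6), because these genes had the clearest differences between cell types or hormone groups among the 4 members for which a promoter was at hand. They were searched on both strands for GGTCA, which an estrogen response element holds in each of its arms, for the STAT element TTCNNNGAA, and for the palindromic estrogen response element (it contains GGTCA), the progesterone and glucocorticoid receptor element, the interferon-stimulated response element and an NF-kB site. Matches are in capitals, read on the strand of the gene, so that TGACC is GGTCA on the opposite strand.
C3, upstream of the start, chr17:57228137-57228386, minus strand: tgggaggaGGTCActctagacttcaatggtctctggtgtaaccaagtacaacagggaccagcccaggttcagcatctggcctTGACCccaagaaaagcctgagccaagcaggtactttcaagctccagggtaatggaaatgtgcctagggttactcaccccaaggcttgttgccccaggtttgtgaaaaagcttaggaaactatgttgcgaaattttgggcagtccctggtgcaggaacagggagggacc
Cd55, upstream of the start, chr1:130462745-130462994, minus strand: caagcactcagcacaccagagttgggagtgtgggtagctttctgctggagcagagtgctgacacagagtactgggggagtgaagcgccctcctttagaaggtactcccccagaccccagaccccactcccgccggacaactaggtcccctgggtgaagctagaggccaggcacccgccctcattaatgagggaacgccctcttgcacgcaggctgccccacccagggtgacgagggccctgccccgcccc
C1qb, upstream of the start, chr4:136886201-136886450, minus strand: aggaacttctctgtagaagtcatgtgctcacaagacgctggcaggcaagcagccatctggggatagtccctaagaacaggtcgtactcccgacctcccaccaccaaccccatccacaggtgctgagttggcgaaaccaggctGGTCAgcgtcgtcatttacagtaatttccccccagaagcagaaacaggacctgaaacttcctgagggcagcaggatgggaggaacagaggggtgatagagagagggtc
C3 had 2 matches, beginning 242 and 168 bases before the start; C1qb had 1, at 108 bases; Cd55 had none. GGTCA occurs in 35.2% of the 32851 upstream sequences of 250 bases in the table. The other 5 motifs occur in 7.02%, 0.0639%, 0.387%, 2.98% and 3.90% of them, in the order named, and none was found in these 3 sequences. These are matches of letters, not sites shown to be used.

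The members divided between cell types. C1qa and C1qb were macrophage genes, C4b and Cfb were read in macrophages and fibroblasts, and C2, C3 and Serping1 were read at their highest in fibroblasts. Cd55 was highest in Fib_0-like cells. Cfd was near 0 throughout.

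**Figure D1:**
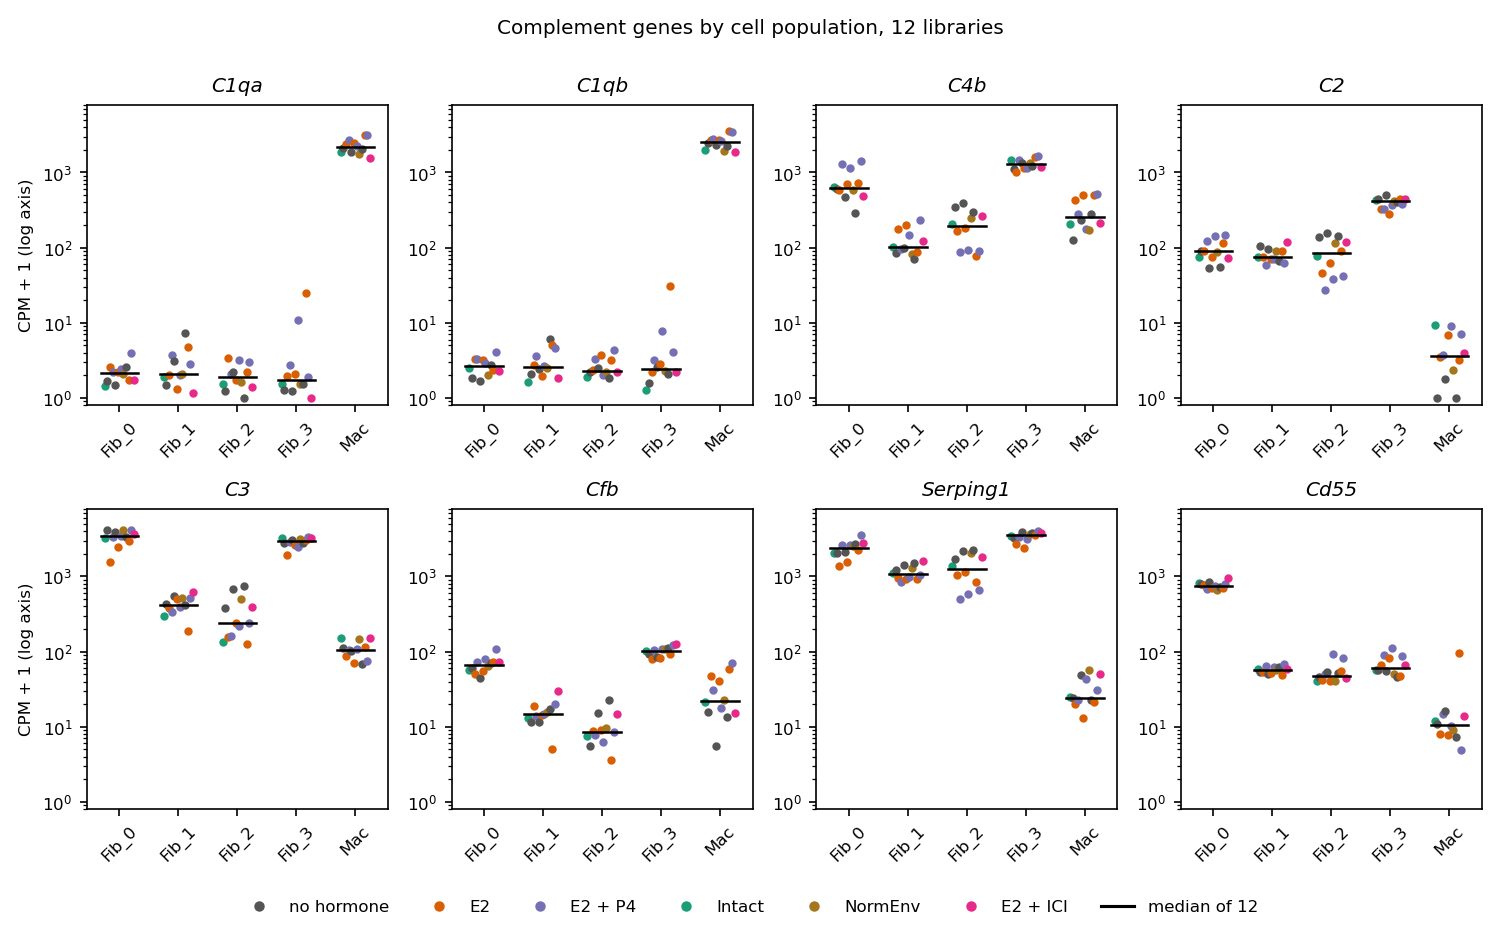
Level of 8 members in the 4 fibroblast subsets and in macrophage-like cells (Mac); each point is 1 library, the y axis is CPM + 1 on a log scale, and the line is the median of 12 libraries. C1qa and C1qb stand at 1566 to 3180 and 1865 to 3570 CPM in macrophages, while Cd55 in Fib_0-like cells lies above every other subset in all 12 libraries.

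In macrophage-like cells C1qa was at 2359 CPM and C1qb at 2636 CPM over all libraries. The fibroblast subsets held 1.16 to 3.01 CPM of C1qa. Cells with fewer than 5000 UMIs were then left out and the others thinned to 5000 UMIs. Left out were 1252 of 2902 T and NK-like, 85 of 1198 macrophage-like and 288 of 9993 Fib_0-like cells. Of the cells kept, 58.8% of macrophage-like cells had a C1qa UMI, against 0.44% to 0.62% in the fibroblast subsets and 1.03% of T and NK-like cells. T and NK cells do not make C1q, and the fibroblast values are therefore read as background. Median depth before thinning was 9484 to 15273 UMIs per cell in macrophage-like and 4831 to 6220 in T and NK-like cells. In Fib_3-like cells C1qa reached 23.8 CPM in VCD_High_PBDE_E2 and 10.1 CPM in VCD_Low_E2_P4, and was at most 1.72 CPM in the other 10 libraries.

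C4b, the C4 component that C1 cleaves, was highest in Fib_3-like cells at 1288 CPM, followed by Fib_0-like cells at 771, macrophage-like cells at 326, Fib_2-like cells at 176 and Fib_1-like cells at 117 CPM. Fib_3-like exceeded Fib_0-like cells in 11 of 12 libraries, whereas Fib_2-like exceeded Fib_1-like cells in 6 of 12. The last order moved with hormone: without it C4b was at 297 to 386 CPM in Fib_2-like against 69.0 to 99.3 CPM in Fib_1-like cells, and with E2 + P4 at 87.2 to 92.1 against 94.4 to 235 CPM.

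C2, which joins C4 in the classical convertase, stood at 387 CPM in Fib_3-like cells and at 94.2, 81.8 and 74.9 CPM in Fib_0-, Fib_1- and Fib_2-like cells. Fib_3-like cells were above each other subset in 12 of 12 libraries, by a geometric mean of 4.39- to 5.16-fold. The order of the other 3 moved with hormone. Without hormone Fib_2-like cells (139 to 154 CPM) stood above Fib_1-like (65.5 to 103 CPM) and Fib_0-like cells (53.4 to 90.0 CPM), and with E2 + P4 Fib_0-like cells (123 to 148 CPM) stood above Fib_1-like (57.4 to 69.2 CPM) and Fib_2-like cells (26.2 to 40.9 CPM). Cfb, its counterpart in the alternative pathway, starts 85 bases past the end of C2 and stood at 98.5 CPM in Fib_3-like, 64.8 in Fib_0-like, 14.0 in Fib_1-like and 7.47 in Fib_2-like cells. Macrophage-like cells, at 31.4 CPM of Cfb, lay below Fib_3-like and Fib_0-like cells in 12 of 12 libraries, above Fib_1-like cells in 9 and above Fib_2-like cells in 10.

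C3, on which the pathways converge, was at 3378 CPM in Fib_0-like and 2832 CPM in Fib_3-like cells, against 428, 266 and 102 CPM in Fib_1-like, Fib_2-like and macrophage-like cells. Summed over all libraries, T and NK-like cells read 64.5 CPM of C3, below macrophage-like cells, while B-like and endothelial-like cells read 141 and 159 CPM, above them. Of the 270 B-like and 144 endothelial-like cells, 105 and 63 came from VCD_Low_E2_P4. By the median of 12 libraries, B-like and endothelial-like cells stood below macrophage-like cells, at 79.4 and 46.2 against 105 CPM. Whether the macrophage level is expression or background was not tested. Fib_0-like exceeded Fib_3-like cells in 8 of 12 libraries, by 1.14-fold, so the upper pair was not separated. Within subsets C3 was unevenly spread: the tenth of cells with the most C3 per UMI, 10% of cells, held 21.5% of C3 in Fib_0-like cells, against 65.7% for Fib_2-like cells. The median Fib_0-like cell had 59 C3 UMIs and the median Fib_2-like cell had 1.

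Serping1 was at 3311 CPM in Fib_3-like, 2343 in Fib_0-like, 1161 in Fib_1-like and 1141 in Fib_2-like cells, and at 28.1 CPM in macrophage-like cells, below the 48.6 CPM of T and NK-like cells, while endothelial-like cells held 440 CPM. Cd55 was at 755 CPM in Fib_0-like cells and 54.8 to 71.1 CPM in the other 3 subsets, which B-like (76.1 CPM) and endothelial-like cells (108 CPM) exceeded. Fib_0-like cells exceeded each other subset in 12 of 12 libraries, by 11.6- to 14.8-fold. Cfd was read at 0.02 to 0.21 CPM in fibroblast subsets and 2.13 CPM in macrophage-like cells. Adipocytes, the known source of adipsin, were mostly removed with the larger cells, and their markers Adipoq and Plin1 were at most 0.25 and 0.36 CPM in these populations summed over all libraries.

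The orders were tested as each subset against the mean of the other 3, over 12 libraries with the library as a block (edgeR quasi-likelihood test with Benjamini-Hochberg adjustment over all genes). Differences are log2 fold changes ± SE, and 71.4%, 58.9%, 60.4% and 49.4% of all genes tested were called for Fib_0 to Fib_3 in turn, so that a call by itself says little. Among the 8 members tested, 6, 6, 6 and 8 were called. Cd55 was higher in Fib_0-like cells by 3.76 ± 0.08 (adjusted p = 1.02e-32). C3 was higher in Fib_0-like cells by 2.25 ± 0.14 and in Fib_3-like cells by 2.06 ± 0.14. C2 was higher in Fib_3-like cells by 2.28 ± 0.16 and lower in Fib_0-like cells, -0.48 ± 0.18 (adjusted p = 0.0197, which rose to 0.0626 at most without any 1 of VCD_Vehicle, VCD_Low_PBDE, VCD_High_PBDE or VCD_E2_ICI). The mean compared with Fib_0-like cells includes the high Fib_3-like level. For C2, Fib_0-like cells stood above Fib_1-like cells in 7 of 12 libraries and above Fib_2-like cells in 6 of 12. C4b was higher by 2.41 ± 0.20 and Cfb by 2.46 ± 0.12 in Fib_3-like cells, and all 6 of C4b, C2, C3, Cfb, Serping1 and Cd55 were lower in Fib_1-like cells, as they were in Fib_2-like cells, where 30.7% and 30.0% of all genes were called lower. C1qa and C1qb were called higher in Fib_3-like cells (1.03, adjusted p = 0.0352, and 0.93, adjusted p = 0.0119), but not without VCD_High_PBDE_E2 (0.36, adjusted p = 0.471, and 0.29, adjusted p = 0.362) or VCD_Low_E2_P4 (0.61, adjusted p = 0.276, and 0.70, adjusted p = 0.09), nor by DESeq2.

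Genes whose level followed a member most closely over the 48 sums of library and subset were found by Pearson correlation of log2(CPM + 1), as a description, since the sums share libraries. They were Sbsn, Emilin2 and Krtdap for Cd55 (r = 0.975 to 0.977), Cpne8, Arhgef10 and Cadm3 for C3 (0.951 to 0.961), and Ecm1, Galnt15 and Tnfsf13b for Serping1 (0.887 to 0.955). For C2 they were Tnfsf13b, Fth1 and Tmeff2 (0.899 to 0.935), for C4b Rps4x, Gabra3 and Rps20 (0.898 to 0.929), and for Cfb Nsg1, Ly6c1 and Cryab (0.923 to 0.934). Among members, C3 and Cfb were closest (r = 0.951) and C2 and Cd55 farthest apart of the 6 (r = -0.19). Over the 12 macrophage sums C1qc, the third C1q chain, came first for C1qa and C1qb (r = 0.938 and 0.941). For Cfd no gene exceeded r = 0.489.

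The question put by the hormone groups is how E2, alone or with P4, changes these genes in glands without follicles. The E2 comparison sets the 6 libraries with E2 against the 3 without hormone, and the P4 comparison sets E2 + P4 against E2, in 9 libraries with PBDE level as a term (edgeR, 4 residual degrees of freedom). The E2 difference thus averages E2 alone and E2 + P4. It holds part of the P4 difference, so that the differences of the comparisons do not add up. Shares of all genes were counted for hormone libraries all above or below those without hormone, and for no other order of hormone states. The 3 PBDE levels stand in for replicates, and Intact, VCD_Vehicle_NormEnv and VCD_E2_ICI, as lone libraries, are given as values. By shared barcodes, VCD_Low_PBDE and VCD_High_PBDE stand apart from the hormone libraries of their own PBDE level, as given below. There, the E2 comparison and these sets of libraries cannot be told apart, in any cell type. VCD_E2_ICI shared the most barcodes with VCD_Vehicle_NormEnv and VCD_High_PBDE, both without hormone, so ICI and that set cannot be told apart either.

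In Fib_2-like cells C4b, C2, C3 and Serping1 all fell with E2, alone or with P4, as a share of UMIs, by 2.76- to 3.3-fold. Counted per cell, their ranges with E2 alone overlapped those without hormone. In Fib_0-like cells the comparison of E2, alone or with P4, against no hormone raised C4b 2.09-fold and left the other members uncalled. Fib_1-like cells lost Serping1 by 1.47-fold, and Fib_3-like cells gained Cd55 by 1.58-fold. For both gains the E2 + P4 libraries stood above those with E2 alone. VCD_E2 for C4b and VCD_High_PBDE_E2 for Cd55 lay inside the range without hormone. Both calls depended on the alternative chosen and on single libraries, as given below.

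**Figure D2:**
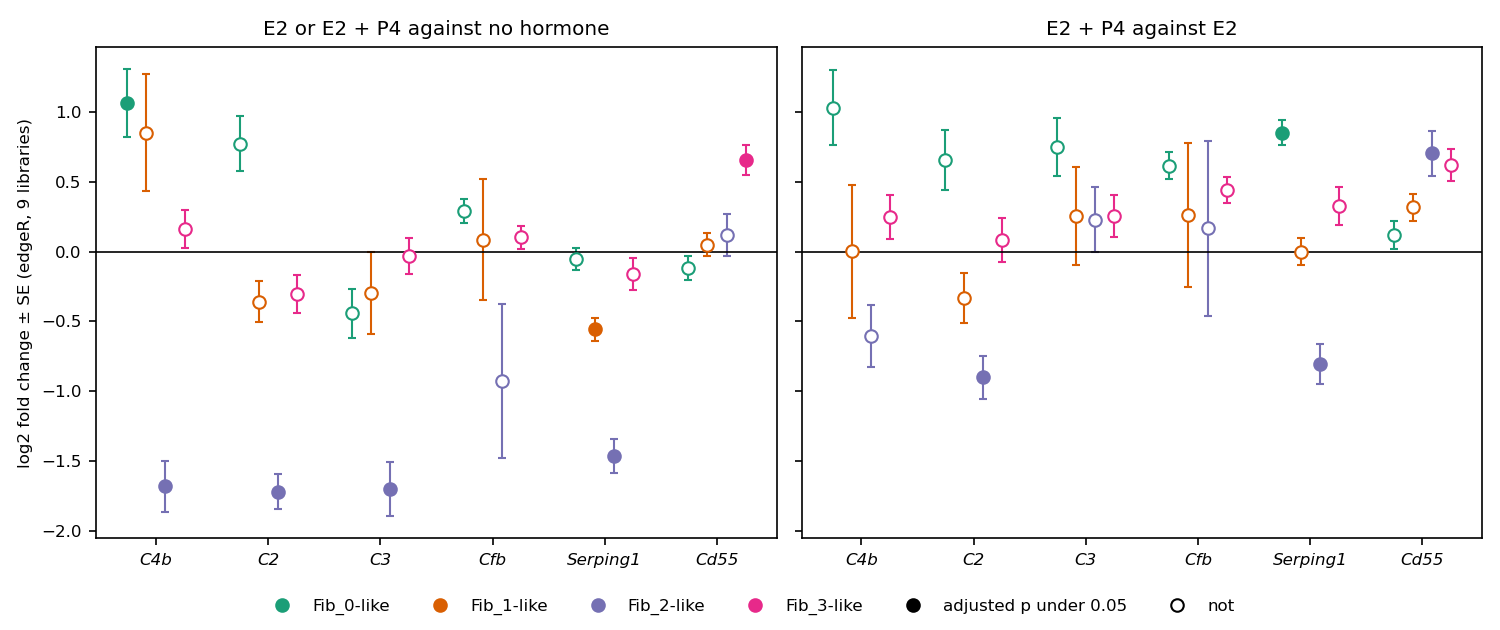
Fitted log2 fold changes ± SE of 6 members in the 4 fibroblast subsets, for E2 or E2 + P4 against no hormone (left) and E2 + P4 against E2 (right); filled points have an adjusted p under 0.05. On the left, C4b, C2, C3 and Serping1 in Fib_2-like cells sit between -1.47 and -1.72, and C4b in Fib_0-like cells sits at 1.06.

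In Fib_2-like cells 4 of 7 members tested were called lower, where 31.8% of all genes were called and 15.8% were called lower. The members' median log2 fold change was -1.47, against -0.01 over all genes. C3 read 380, 675 and 740 CPM without hormone (no, low and high PBDE), 157, 237 and 126 CPM with E2, and 159, 216 and 237 CPM with E2 + P4. The hormone libraries all lay below those without hormone, and the change was -1.70 ± 0.19 (adjusted p = 0.000285). Some hormone libraries read no more C3 than B-like or endothelial-like cells did summed over all libraries. All lay above the medians of these classes over 12 libraries, 79.4 and 46.2 CPM. The part of background was not tested. VCD_Vehicle_NormEnv read 498 and VCD_E2_ICI 387 CPM, within the range without hormone, while Intact read 134 CPM, within the range with hormone.

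C4b in these cells read 345, 386 and 297 CPM without hormone, 168, 183 and 75.9 CPM with E2, and 87.2, 92.1 and 89.4 CPM with E2 + P4 (-1.68 ± 0.18, adjusted p = 0.000166). Again no hormone library reached the lowest library without hormone. C2 read 139, 154 and 143 CPM without hormone, 44.8, 61.4 and 90.5 CPM with E2, and 26.2, 37.6 and 40.9 CPM with E2 + P4 (-1.72 ± 0.13, adjusted p = 6.53e-07). Adding P4 to E2 lowered C2 further (-0.90 ± 0.15, adjusted p = 0.00741), a call lost without VCD_E2_P4 or VCD_Low_E2_P4 (adjusted p at most 0.0574) and with fibroblast gates that left out Postn, Tnc, Mfap4 and Thbs1 (0.0639). All 3 E2 + P4 libraries lay below all 3 E2 libraries for C2, an order that was not counted over all genes.

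The C1 inhibitor gene Serping1 read 1707, 2212 and 2239 CPM without hormone, 1058, 1152 and 842 CPM with E2, and 503, 591 and 665 CPM with E2 + P4. Its 3 hormone states did not overlap, a pattern that was not counted over all genes. E2, alone or with P4, changed Serping1 by -1.47 ± 0.12 (adjusted p = 2.01e-06). P4 added to E2 changed it by -0.81 ± 0.15 (adjusted p = 0.00945, which rose to 0.114 at most when VCD_E2, VCD_E2_P4, VCD_Low_E2 or VCD_Low_E2_P4 was left out). VCD_E2_ICI read 1816, VCD_Vehicle_NormEnv 2057 and Intact 1383 CPM. The 4 members that fell with E2 in Fib_2-like cells kept their call in each alternative run and without each library in turn. They were also lower with E2 within each PBDE level (differences of -1.22 to -2.09 on the log2(CPM + 1) scale). The libraries with no PBDE share 1 code in the submitters' file names and those with high PBDE the other code, so that for these PBDE levels the differences lie within a code. By shared barcodes the libraries fall otherwise: VCD_Vehicle shared 138 and 123 barcodes with VCD_E2 and VCD_E2_P4, but VCD_Low_PBDE shared 5 and 14 with VCD_Low_E2 and VCD_Low_E2_P4 against 174 with VCD_Vehicle, and VCD_High_PBDE shared 4 and 2 with VCD_High_PBDE_E2 and VCD_High_PBDE_E2_P4 against 35 with VCD_Vehicle_NormEnv. With no PBDE, where the 3 libraries shared barcodes, the differences with E2 were -1.26 for C3, -1.50 for C4b, -1.99 for C2 and -1.23 for Serping1. At the other PBDE levels these sets of libraries and hormone cannot be told apart. VCD_E2_ICI shared 34 barcodes with VCD_Vehicle_NormEnv and 27 with VCD_High_PBDE, against 13 with VCD_E2. For its values, ICI and that set of libraries cannot be told apart. Among all genes, 12.8% had every hormone library below the libraries without hormone.

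Cfb and Cd55 were not called with E2 in these cells. Cfb stood at 4.59, 14.1 and 21.8 CPM without hormone and at 2.60 to 8.17 CPM with hormone (-0.93 ± 0.55, adjusted p = 0.254). Cd55 stood at 44.7, 52.9 and 51.5 CPM without hormone, 41.1, 39.1 and 54.1 CPM with E2, and 49.0, 93.4 and 80.7 CPM with E2 + P4. Its change with E2 was 0.12 ± 0.15 (adjusted p = 0.603), and the sign turned with a stricter marker gate (-0.052). With P4 added Cd55 rose by 0.70 ± 0.16 (adjusted p = 0.0383), a call lost under 4 of 10 alternatives and without any 1 of 6 libraries (adjusted p up to 0.246); VCD_E2_P4 lay inside the E2 range. For P4, 3 of 7 members were called in these cells, against 3.09% of all genes.

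**Figure D3:**
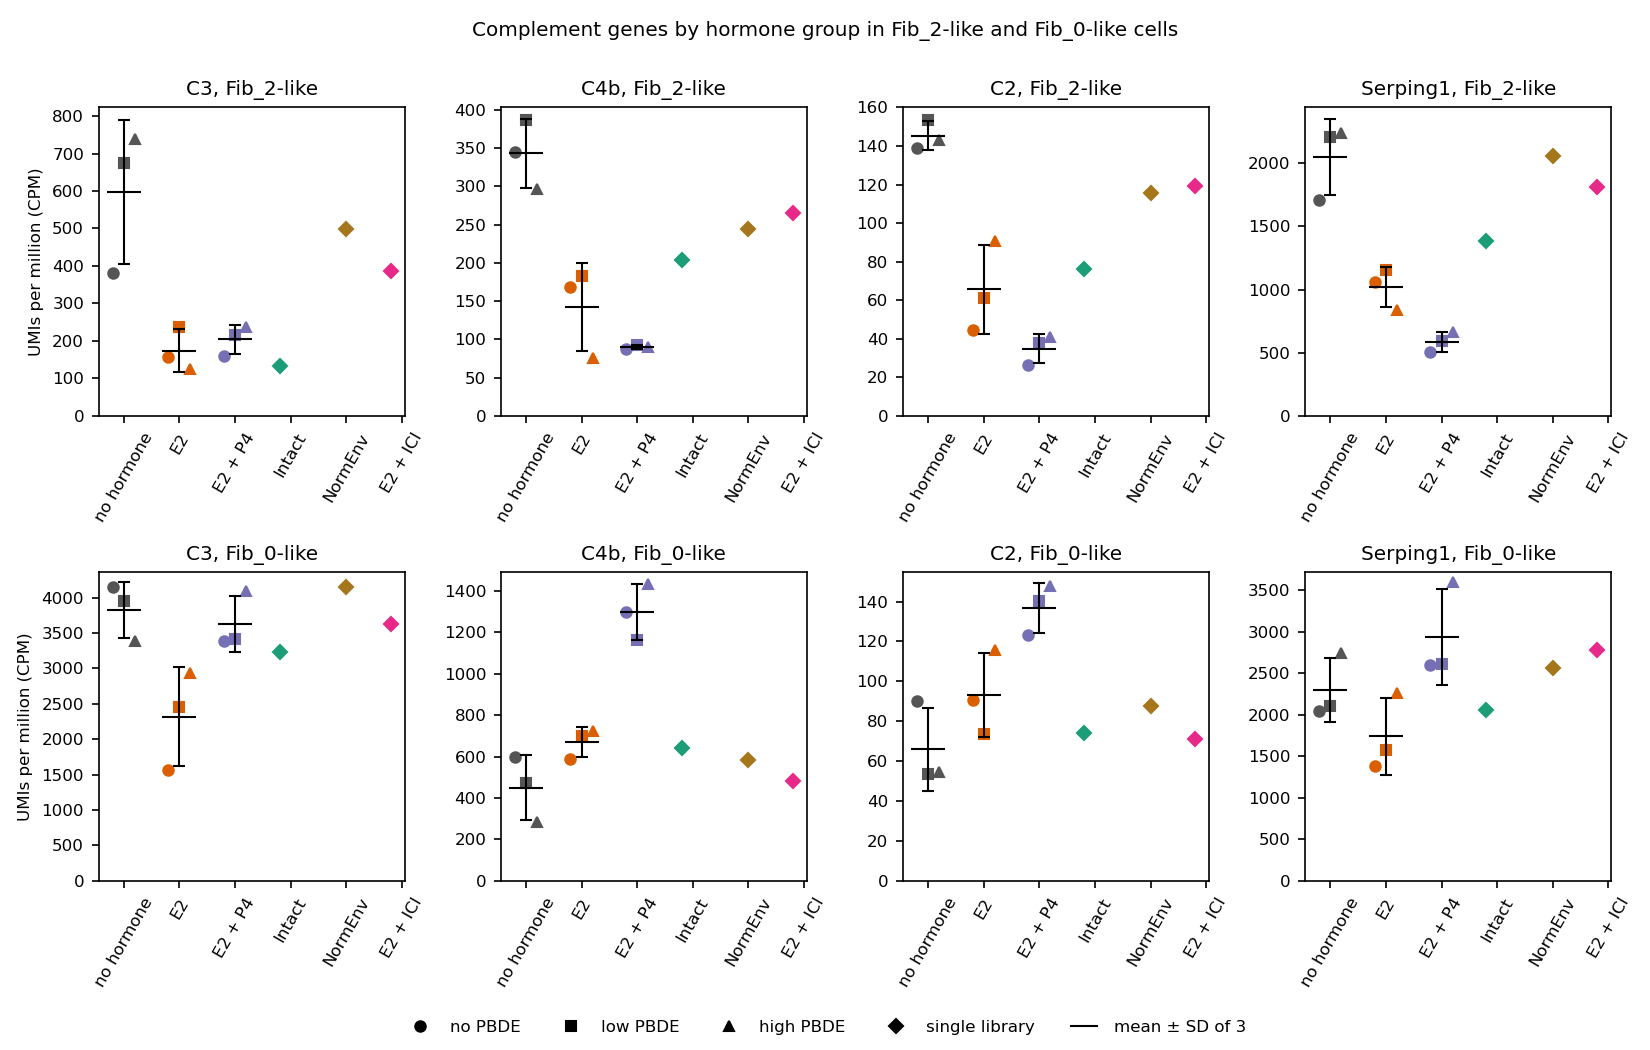
CPM of C3, C4b, C2 and Serping1 in Fib_2-like (top) and Fib_0-like cells (bottom) by hormone group; circles, squares and triangles are no, low and high PBDE, bars are the mean ± SD of 3 libraries, and diamonds are lone libraries. In Fib_2-like cells Serping1 falls from 2053 ± 300 CPM without hormone to 586 ± 81.4 CPM with E2 + P4, while in Fib_0-like cells C4b goes from 450 ± 157 to 1299 ± 135 CPM.

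Fib_2-like cells also differed in depth between the hormone states. Their median UMI count per cell was 8797 to 10205 without hormone, 16716 to 17488 with E2 and 20381 to 28332 with E2 + P4. Counted per cell and not as CPM, the falls were smaller: C3 was at 3.78 to 7.92 UMIs per cell without hormone, 2.45 to 4.42 with E2 and 4.15 to 6.13 with E2 + P4, ranges that overlap. Serping1 was at 17.0 to 24.8, 16.4 to 21.5 and 11.4 to 17.2 UMIs per cell in the same order, C2 at 1.38 to 1.72, 0.87 to 1.76 and 0.72 to 1.06, and C4b at 3.18 to 4.34, 1.47 to 3.41 and 1.77 to 2.58. With E2 alone the ranges of Serping1, C2 and C4b also overlapped those without hormone. With E2 + P4 that of Serping1 overlapped, while those of C2 and C4b lay below. Of cells with at least 5000 UMIs, thinned to 5000, 42.3% to 46.6% had a C2 UMI without hormone, 18.1% to 28.0% with E2 and 9.27% to 17.4% with E2 + P4. Unthinned, over all cells of the subset, the shares were 59.8% to 61.8%, 46.7% to 55.6% and 36.5% to 45.7%.

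Markers of the subsets rich in C3 moved in Fib_2-like cells too. The 8 Fib_3 markers summed to 465 to 640 CPM without hormone, 384 to 602 with E2 and 339 to 390 with E2 + P4. The 7 Fib_0 markers summed to 609 to 677, 381 to 436 and 480 to 684 CPM, and no marker of either list was at 0. Their part in the falls was not tested.

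In Fib_0-like cells, 1 of 8 members was called with E2, against 9.91% of all genes. C4b read 596, 470 and 284 CPM without hormone, 589, 698 and 726 CPM with E2, and 1300, 1164 and 1433 CPM with E2 + P4. The E2 + P4 libraries stood above all others, whereas VCD_E2 lay inside the range without hormone. The change with E2 was 1.06 ± 0.24 (adjusted p = 0.0453); that call was lost under 5 of 10 alternatives (adjusted p up to 0.173) and without any 1 of VCD_E2_P4, VCD_Low_PBDE, VCD_Low_E2, VCD_Low_E2_P4, VCD_High_PBDE_E2 or VCD_High_PBDE_E2_P4 (up to 0.165). Intact, VCD_Vehicle_NormEnv and VCD_E2_ICI read 639, 582 and 479 CPM.

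C2 in Fib_0-like cells read 90.0, 53.4 and 54.5 CPM without hormone, 90.5, 73.4 and 116 CPM with E2, and 123, 140 and 148 CPM with E2 + P4 (0.78 ± 0.20, adjusted p = 0.059). C3 read 4151, 3953 and 3389 CPM without hormone, 1568, 2452 and 2937 CPM with E2, and 3382, 3416 and 4089 CPM with E2 + P4. All 3 E2 libraries lay below the other 6, an order that was not counted over all genes. Neither comparison was called for C3 (E2 -0.44 ± 0.18, adjusted p = 0.157, and P4 0.75 ± 0.21, adjusted p = 0.321).

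Serping1 in these cells was at 2049, 2108 and 2741 CPM without hormone, 1381, 1568 and 2263 CPM with E2, and 2593, 2609 and 3599 CPM with E2 + P4. P4 added to E2 raised it by 0.85 ± 0.09 (adjusted p = 0.0254), the 1 of 8 members called where 0.110% of all genes were called, 14 of 12670. Within each PBDE level E2 + P4 exceeded E2. The call was lost without VCD_E2, VCD_E2_P4, VCD_Low_E2, VCD_Low_E2_P4 or VCD_High_PBDE_E2_P4 (adjusted p up to 0.16). For C4b and Cfb the P4 differences were 1.03 ± 0.27 (adjusted p = 0.315) and 0.62 ± 0.10 (adjusted p = 0.0788). Cd55, highest in these cells, stood at 687 to 837 CPM in the 9 libraries, with an E2 difference of -0.12 ± 0.09 (adjusted p = 0.423). The Fib_3 marker sum in Fib_0-like cells was 116 to 182 CPM without hormone, 190 to 299 with E2 and 291 to 375 with E2 + P4; its part in the C4b and C2 values was not tested.

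In Fib_1-like cells Serping1 was the 1 of 8 members called with E2, against 7.85% of all genes. It read 1203, 1422 and 1490 CPM without hormone, 942, 935 and 926 CPM with E2, and 838, 979 and 1048 CPM with E2 + P4. Every hormone library lay below those without hormone, as for 4.58% of all genes, and the change was -0.56 ± 0.08 (adjusted p = 0.00189). VCD_E2_ICI read 1603 and VCD_Vehicle_NormEnv 1300 CPM, with Intact at 1105 CPM. C3 and C4b differed by -0.29 ± 0.29 (adjusted p = 0.604) and 0.85 ± 0.42 (adjusted p = 0.294). With P4, 0 of 8 members were called by edgeR, where 0.283% of all genes were; 1, Cd55, had an unadjusted p under 0.05, and DESeq2 called 0.

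In Fib_3-like cells, where C4b, C2 and Cfb were highest, these genes were not called with E2. C4b differed by 0.16 ± 0.14 (adjusted p = 0.553), C2 by -0.30 ± 0.14 (0.247 as adjusted p) and C3 by -0.03 ± 0.13 (0.934). Cd55 was the 1 of 8 members called, against 3.72% of all genes. It read 55.5, 55.0 and 44.6 CPM without hormone, 65.2, 81.4 and 47.1 CPM with E2, and 88.5, 111 and 87.2 CPM with E2 + P4 (0.66 ± 0.11, adjusted p = 0.00445). VCD_High_PBDE_E2 lay inside the range without hormone. The call was lost without VCD_Low_PBDE (adjusted p = 0.0866) and with the code in the submitters' file names as a covariate (0.0768). The Fib_0 markers, from the subset where Cd55 is high, summed to 707 to 744 CPM in these cells without hormone, 563 to 821 with E2 and 995 to 1137 with E2 + P4; their part in the Cd55 values was not tested. P4 changed 0 of 8 members by edgeR, where 0.116% of all genes were called; 3 had an unadjusted p under 0.05 (Cd55, Serping1 and Cfb), and DESeq2 called 1, Cd55, whose difference was 0.62 ± 0.12 (edgeR adjusted p = 0.058).

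Whether the E2 differences were unequal across the 4 subsets was tested directly, as a subset by hormone interaction with the library as a block (edgeR F test). It was called for 4 of 8 members, C2 (F = 15.9, adjusted p = 0.00112), C4b (F = 12.7, adjusted p = 0.00282), C3 (F = 9.94, adjusted p = 0.00603) and Cd55 (F = 5.38, adjusted p = 0.0353), against 22.7% of all genes. Serping1 (F = 5.10, adjusted p = 0.0516) and Cfb (F = 1.96, adjusted p = 0.309) did not pass. Leaving out VCD_High_PBDE ended the calls of C4b (adjusted p = 0.0572), C3 (0.0832) and Cd55 (0.103), and leaving out VCD_Low_PBDE ended those of C3 (0.0672) and Cd55 (0.358). The Cd55 call was also lost without VCD_Vehicle, VCD_E2_P4 or VCD_High_PBDE_E2_P4 (adjusted p up to 0.154) and under 3 of 9 alternatives (up to 0.0844).

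In macrophage-like cells 1 of 7 members was called with E2, Cfb, against 0.266% of all genes, 23 of 8652. Cfb read 14.6, 4.63 and 12.4 CPM without hormone, 46.8, 39.2 and 57.5 CPM with E2, and 30.3, 16.6 and 68.9 CPM with E2 + P4. The values without hormone rest on few Cfb UMIs, from 62, 91 and 63 cells with 819966, 1296214 and 642608 UMIs of all genes. Among the libraries compared, all with hormone lay above those without, though VCD_Low_E2_P4 only just, and the change was 2.03 ± 0.31, or 4.07-fold (adjusted p = 0.0148). VCD_Vehicle_NormEnv, which also had no hormone but lies outside the comparison, read 21.7 CPM, above VCD_Low_E2_P4. Intact and VCD_E2_ICI, at 20.1 and 14.1 CPM, lay on both sides of VCD_Low_E2_P4. Within PBDE levels the difference with E2 was 1.31, 2.24 and 2.25 on the log2(CPM + 1) scale with no, low and high PBDE. For low and high PBDE, hormone and the sets of libraries by shared barcodes cannot be told apart. The call was lost under 5 of 10 alternatives (adjusted p up to 0.102) and without VCD_E2, VCD_Low_PBDE or VCD_High_PBDE (up to 0.151). With P4, 0 of 7 members were called by edgeR, where 0.0809% of all genes were; 1, Serping1, had an unadjusted p under 0.05, and DESeq2 called 0.

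**Figure D4:**
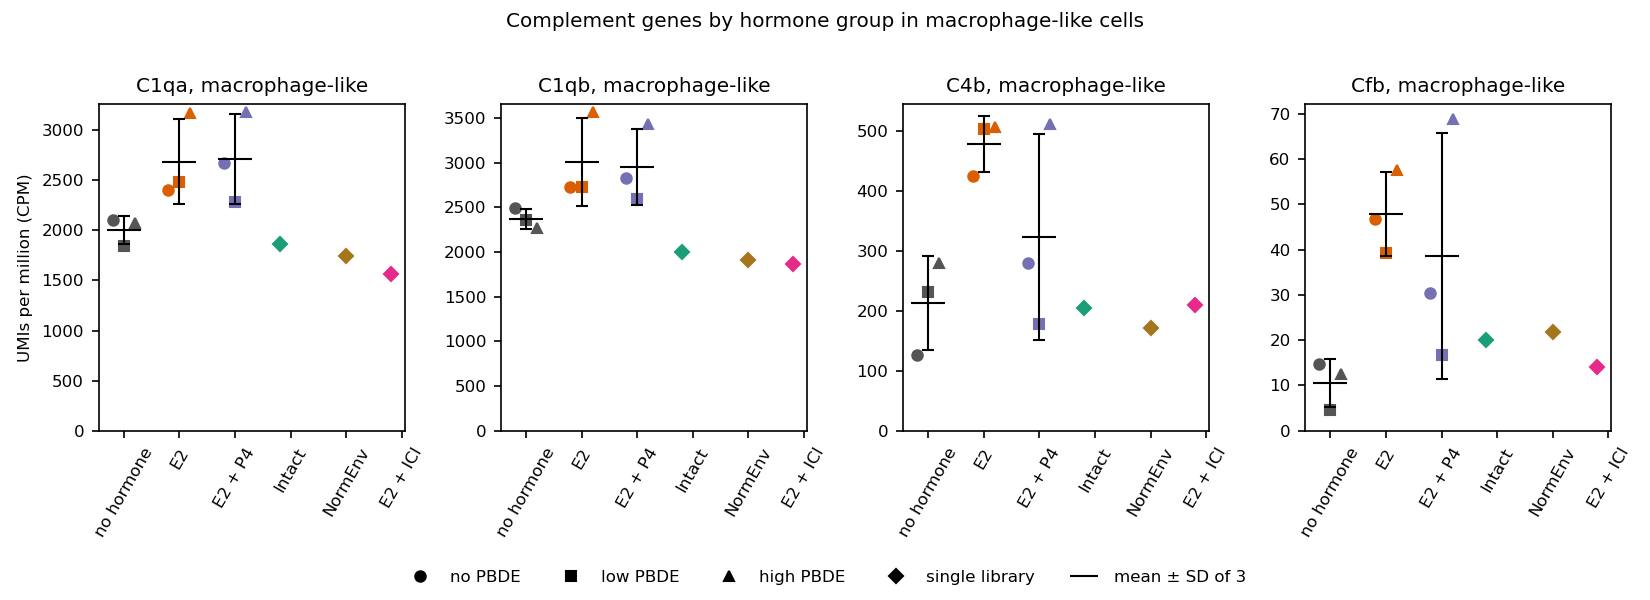
CPM of C1qa, C1qb, C4b and Cfb in macrophage-like cells by hormone group; circles, squares and triangles are no, low and high PBDE, bars are the mean ± SD of 3 libraries, and diamonds are lone libraries. Cfb is at 10.6 ± 5.26 CPM without hormone, 47.8 ± 9.21 with E2 and 38.6 ± 27.1 with E2 + P4.

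C1qa read 2105, 1844 and 2068 CPM without hormone, 2399, 2482 and 3171 CPM with E2, and 2668, 2284 and 3180 CPM with E2 + P4. C1qb read 2494, 2355 and 2272 CPM, then 2725, 2723 and 3570 CPM, then 2830, 2597 and 3427 CPM in the same order. For both genes every hormone library lay above those without hormone, as did 2.81% of all genes, but the differences of 0.40 ± 0.10 and 0.30 ± 0.10 were not called (adjusted p = 0.153 and 0.341). VCD_E2_ICI had the lowest level of both, at 1566 and 1865 CPM. C4b read 127, 231 and 280 CPM without hormone, 424, 503 and 507 CPM with E2, and 280, 178 and 512 CPM with E2 + P4, the last of which overlaps both other groups, while E2 and no hormone do not overlap (0.87 ± 0.28, adjusted p = 0.416). Cd55 was at 3.87 to 15.4 CPM in 11 libraries and at 94.4 CPM in VCD_High_PBDE_E2.

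Macrophage-like cells were not uniform for C1q. At least 2 C1qa UMIs were found in 718 of 1198 cells, 59.9% (exact binomial interval 57.1% to 62.7%, which covers counting error only), and the share went from 17.4% in cells with 4 of the 7 macrophage markers to 96.6% in cells with all 7. C4b was at 556 CPM in cells with C1qa and 23.1 CPM in the rest, and was higher in the former in 12 of 12 libraries. Cfb, at 48.3 against 9.25 CPM, was higher there in 11 of 12. C3, whose part of background in this class was not tested, was at 74.8 against 139 CPM and lower there in 11 of 12. Within the cells with C1qa, Cfb was at 5.66 to 20.4 CPM without hormone, 57.4 to 76.7 with E2 and 26.9 to 86.3 with E2 + P4. In the same cells and order C1qa was at 3382 to 4122, 3905 to 4342 and 4268 to 4637 CPM. C1qb was at 4208 to 4573, 4252 to 4817 and 4568 to 4962 CPM. For C1qa and C1qb the range with E2 alone overlapped that without hormone. The share of cells with C1qa overlapped between hormone states, at 58.7% to 63.7%, 57.7% to 81.0% and 56.5% to 74.8%.

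Of 43 other complement genes listed, 40 were in the files. With E2, 6 of the 13 tested in Fib_2-like cells were called, where 31.8% of all genes were. Among them, the C1 proteases C1ra and C1s1 fell (-1.06 ± 0.11 and -0.59 ± 0.10), as did the membrane cofactor Cd46 (-1.10 ± 0.35) and vitronectin, Vtn (-3.11 ± 0.36), an inhibitor of the terminal pathway; Hc, which encodes C5, rose by 1.28 ± 0.21. Hc read 70.8 to 75.4 CPM without hormone, 129 to 299 with E2 and 167 to 225 with E2 + P4, with Intact at 146 and VCD_E2_ICI at 104 CPM. P4 added to E2 lowered C1ra and C1s1 in these cells (-0.88 ± 0.13 and -0.47 ± 0.12), where 1.89% of all genes were lower. The E2 calls of Hc, C1ra, C1s1 and Vtn and the P4 call of C1ra held in each alternative and without each library, whereas those of Cd46 and, for P4, C1s1 were lost in at least 1 of them.

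In the other subsets fewer were called. With E2, 3 of 21 were higher in Fib_0-like cells, where 5.22% of all genes were, namely Cd59b, C6 and Colec10, each at most 5.63 CPM in the 9 libraries; 2 of 15 were called in Fib_1-like cells (Cd59b 1.06 ± 0.29, C1ra -0.39 ± 0.09), against 7.85% of all genes; and 4 of 18 were called in Fib_3-like cells, against 3.72% of all genes (Cd59a 0.74 ± 0.19 and C6 1.53 ± 0.35 higher, clusterin, Clu, -0.71 ± 0.09 and Vtn -0.51 ± 0.10). Of these 9 calls that of Clu held in each alternative and without each library, and the others were lost in at least 1. In macrophage-like cells 0 of 16 were called with E2 by edgeR; 4 had an unadjusted p under 0.05, and DESeq2 called 0. The macrophage class held C1qc at 1584, properdin, Cfp, at 826, the C3a receptor C3ar1 at 276 and the C5a receptor C5ar1 at 298 CPM, each at most 3.48 CPM in fibroblast subsets, whereas C1ra (566 to 799 CPM) and C1s1 (697 to 1022 CPM) were read in the 4 fibroblast subsets and at 14.0 and 18.4 CPM in macrophages.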

How the data were processed

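Single-cell RNA of 12 mammary gland libraries was measured with Chromium 3′ v3 chemistry. Unnormalized UMI counts, one matrix a library, were deposited by the authors, who made them with Cell Ranger 3.1.0 against mm10 according to the submitters' processing notes. The labels name a HiSeq and the methods of the study a NovaSeq sequencer.

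Barcodes were kept that held 500 or more genes and 1000 or more UMIs, with a mitochondrial share of 5% or less. The kit counts the 3′ end of transcripts, so levels were not compared between genes. Fibroblasts had UMIs of Col1a1 and Pdgfra and lacked those of Cspg4, Pecam1, Cd52, Ptprc, Krt14 and Epcam. Each was placed in the subset with the highest mean standardised log level of its markers (7 for Fib_0, 8 for the others), with a score of at least 0.25 and a margin of at least 0.5 over the next; other classes needed 2 to 4 markers, and macrophage-like cells had no Pdgfra UMI, which left out 497 cells. No doublet caller was run; cells with the most UMIs were left out as an alternative. UMIs were summed per library and population, and these counts were tested with edgeR 4.0.16 (R 4.3.3; filterByExpr, TMM, glmQLFit and glmQLFTest), with Benjamini-Hochberg adjustment over all genes and a threshold of 0.05. Alternatives were DESeq2 1.42.0, no TMM, no filter, 10% mitochondrial UMIs, a margin of 0.75 with 5 macrophage markers, removal of the 5% of cells with the most UMIs, VCD_Vehicle_NormEnv added, the file name code as a covariate, and each library left out. Intervals use a 95% level. On simulated counts for E2 in Fib_2-like cells, 66% of 200 genes changed by a log2 fold of 1 were recovered among 11440 genes, and 2.22% of calls were false. For E2 in Fib_0-, Fib_1-, Fib_3- and macrophage-like cells 80%, 84.5%, 76.5% and 63% were recovered. False calls there were 6.98%, 7.65%, 11.0% and 10% of calls. Other software was Python 3.11.15, numpy 2.4.6, pandas 2.3.3 and scipy 1.17.1.

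All 9 members were named. Other complement genes came from a list of 43, of which those called and the common components are named, except for results that are not reported here; genes of similar pattern are the 3 with the highest correlation among genes whose mean reached 20 CPM. The members, lists and markers were chosen with earlier results of these data known. Promoters from RefSeq matched 4 of the 9 members (Cd55, C1qb, Cfd and C3); C4a was not analysed here, and C1s2 and Itgam were left out because 2 gene identifiers share each symbol.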

Additional observations from a re-analysis of the deposited data

Results flagged for a closer look

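For 4 of the 9 members the E2 effect differed between the fibroblast subsets, by the edgeR interaction test with adjustment over all genes: C2 (adjusted p = 0.00112), C4b (adjusted p = 0.00282), C3 (adjusted p = 0.00603) and Cd55 (adjusted p = 0.0353). On the log2 scale the E2 difference of C2 was -1.72 in Fib_2-like cells and 0.78, not called, in Fib_0-like cells. That of C4b was -1.68 and 1.06 in the same subsets, both called, though the call in Fib_0-like cells was lost in some alternatives and without some libraries. That of C3 was -1.70 in Fib_2-like and -0.44, not called, in Fib_0-like cells. That of Cd55 was 0.66 in Fib_3-like and -0.12, not called, in Fib_0-like cells. Among the 12884 genes tested 22.7% were called in the same way. The calls of C4b, C3 and Cd55 were lost without VCD_High_PBDE, and those of C3 and Cd55 without VCD_Low_PBDE. The median UMI count of Fib_2-like cells ranged from 8797 to 28332 over libraries, and its part in these differences was not tested.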

How the results depend on the processing

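No paired analysis was possible because each group is 1 library, so that no replicate numbers exist to pair by. Libraries were matched by PBDE level as a term of the hormone fits, and the library was the block of the subset fits. Each hormone state has 3 libraries that differ in PBDE level, and 4 residual degrees of freedom are left. In these libraries Fib_2-like sums rest on 107 to 416 cells each, which also limits the changes that could be called. Of the 66 calls among 91 gene values recomputed, 36 held in each alternative and without each library. Over all 108 log2 fold changes of the members, 94 of 2072 alternative values had the other sign, 0 of them for a called change. Among the values printed, directions turned in 3, all uncalled. Cd55 with E2 in Fib_2-like cells was -0.052 with a stricter gate, -0.085 with fibroblast gates without Postn, Tnc, Mfap4 and Thbs1, and -0.011 to 0.23 without 1 library. C3 with E2 in Fib_3-like cells was 0.066 with the file name code as a covariate and -0.18 to 0.064 without 1 library. Serping1 there was 0.030 with the code and -0.28 to 0.028 without 1 library. The gates without these 4 matrix genes, and the removal of shared barcodes, were chosen after seeing the data.

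Counts of genes called with E2 were 1255 in Fib_0-like cells (233 with the file name code, 237 to 1383 without 1 library), 917 in Fib_1-like cells (608 with a stricter gate, 395 with the code, 388 to 907 without 1 library), 3643 in Fib_2-like cells (2334 to 3773 without 1 library), 417 in Fib_3-like cells (80 with the code, 248 with DESeq2, 62 to 574 without 1 library) and 23 in macrophage-like cells (260 with no filter, 11 with the code, 38 with DESeq2, 5 to 101 without 1 library). With P4 they were 14 in Fib_0-like cells (6 without TMM, 42 with no filter, 9 with a stricter gate, 22 without the cells with the most UMIs, 6 with VCD_Vehicle_NormEnv, 112 with DESeq2, 0 to 30 without 1 library), 33 in Fib_1-like cells (148 with no filter, 19 with a stricter gate, 275 with gates without matrix genes, 96 with DESeq2, 1 to 71 without 1 library), 353 in Fib_2-like cells (755 with no filter, 235 with gates without matrix genes, 68 to 565 without 1 library), 13 in Fib_3-like cells (72 with no filter, 8 at 10% mitochondrial UMIs, 25 without the cells with the most UMIs, 22 with the code, 53 with DESeq2, 1 to 35 without 1 library) and 7 in macrophage-like cells (130 with no filter, 1 at 10% mitochondrial UMIs, 3 with a stricter gate, 4 with the code, 0 to 48 without 1 library). Unequal E2 effects were called for 2929 genes, and for 1166 to 3089 without 1 library. The cause of these shifts was not tested.

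Without TMM, genes called higher and lower went from 3817 and 3764 to 5192 and 2643 for Fib_2-like cells against the other subsets, whose median over all genes moved to 0.11, from 3256 and 2947 to 2481 and 4274 for Fib_3-like cells, from 278 and 139 to 206 and 242 for E2 in Fib_3-like cells, and from 12 and 2 to 3 and 3 for P4 in Fib_0-like cells.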
